A study of Homo sapiens with 6 samples.

Results

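The genes described here are 10 lung lineage transcription factors and epithelial products: NKX2-1, FOXA1, FOXA2, GATA6, SOX2, SOX9, TP63, SFTPB, NAPSA and MUC1. They were taken by symbol from the deposited table, where each had 1 row among 58735 genes. The transcriptome was read from PC9-BrM3 cells, a derivative of the lung adenocarcinoma line PC9 that was isolated from brain metastases after repeated passage through immunodeficient mice. In 3 libraries (BrM3-shAKR1B10) the aldo-keto reductase AKR1B10 was silenced with a lentiviral shRNA, vector 1 of the study, and 3 libraries (BrM3-shNC) carried the negative control shRNA, their genotype labelled WT. All were from routine culture without drug, and all represent 1 derivative line and 1 targeting vector. The sources do not say whether the 3 libraries of a group came from separate cultures, so the p-values measure the spread between these libraries, which may be technical.

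NKX2-1 is a homeodomain factor that marks the lung epithelium from its first specification, and it works with the forkhead factors FOXA1 and FOXA2 and with GATA6 at genes for surfactant proteins and secreted products. Among its well-known targets are SFTPB, the surfactant protein that spreads phospholipid at the air-liquid interface, and NAPSA, an aspartic protease that processes surfactant proteins; both, with NKX2-1, are used by pathologists to recognise lung adenocarcinoma. SOX2 marks the proximal airway and SOX9 the growing distal tips of the developing lung, TP63 marks basal and squamous cells, and MUC1 is a mucin anchored in the apical membrane of most glandular epithelia.

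Upstream sequence was available for 8 of the 10 members, not for FOXA2 and SOX9. The 250 bases before the start site, taken from RefSeq on GRCh38.p14, are shown for 3 genes that stand for the range of levels in this line: SFTPB, at or near 0; FOXA1, the highest member; and MUC1, the member that passed the test. Where several start sites were listed, the most downstream was used. Capitals mark TCAAG, the core of the NKX2-1 motif, and TGTTTA or TGTTTG, the core of the forkhead motif, on either strand, so that the first also reads CTTGA and the second TAAACA or CAAACA; none of the marked matches overlap.
SFTPB (chr2:85668200-85668449, minus strand): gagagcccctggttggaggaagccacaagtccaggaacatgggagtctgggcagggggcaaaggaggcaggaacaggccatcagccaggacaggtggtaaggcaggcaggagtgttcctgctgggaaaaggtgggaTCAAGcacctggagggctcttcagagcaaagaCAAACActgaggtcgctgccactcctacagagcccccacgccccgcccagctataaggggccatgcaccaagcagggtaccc
FOXA1 (chr14:37595250-37595499, minus strand): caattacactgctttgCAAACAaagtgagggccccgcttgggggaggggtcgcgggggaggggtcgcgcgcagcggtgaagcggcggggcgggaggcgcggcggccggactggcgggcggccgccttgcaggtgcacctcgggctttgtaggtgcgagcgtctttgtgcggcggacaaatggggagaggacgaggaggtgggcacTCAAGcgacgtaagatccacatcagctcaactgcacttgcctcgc
MUC1 (chr1:155192910-155193159, minus strand): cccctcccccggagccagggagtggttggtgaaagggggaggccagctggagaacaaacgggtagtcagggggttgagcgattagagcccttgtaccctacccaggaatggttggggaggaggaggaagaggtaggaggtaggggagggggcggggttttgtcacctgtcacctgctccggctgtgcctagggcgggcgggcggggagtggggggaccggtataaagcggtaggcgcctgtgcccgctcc
The SFTPB window held 1 match to each motif, FOXA1 also 1 to each, and MUC1 none. The window of the other listed SFTPB start site (chr2:85668742-85668991) held 0 matches to either motif, so the result for SFTPB depends on the start site. Of 35116 windows of this length in the whole table, 29.2% held the NKX2-1 core and 21.6% the forkhead core, so either match alone is common. These matches are letters only and were not compared with any binding data.

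Of the 10 members, 8 were detected, with at least 3 reads in every library, and 2 were not, SFTPB and FOXA2. The 8 include NAPSA, whose reads cannot be told apart from those of a gene on the other strand. The counts of NKX2-1 and FOXA2 are uncertain too, for genes that overlap them on the same strand. Levels are given as FPKM, fragments scaled to gene length and library size, which can be compared between genes. The range was wide: FOXA1 and SOX9 stood above 95.6% and 93.3% of protein-coding genes in BrM3-shNC, while NKX2-1 stood above 35.5%. After silencing, MUC1 rose, and FOXA1 and SOX9 were lower by less than the fold change required for a call. A gene was tested if its mean over the 6 libraries was at least 1 FPKM, and called where limma gave a Benjamini-Hochberg adjusted p under 0.05 together with a log2 fold change beyond 0.5 in either direction. Of the members, 4 were tested, 1 was called higher and 0 lower. Over all 13150 genes tested, 5.83% were called higher and 7.45% lower. At an unadjusted p under 0.05, 2 of the 4 tested members were lower, as were 27.3% of all genes tested. Voom on the recovered reads tested 8 members and called 0 lower, against 6.23% of all genes in that test, and 2 higher, MUC1 and GATA6, against 5.78%.

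**Figure D1:**
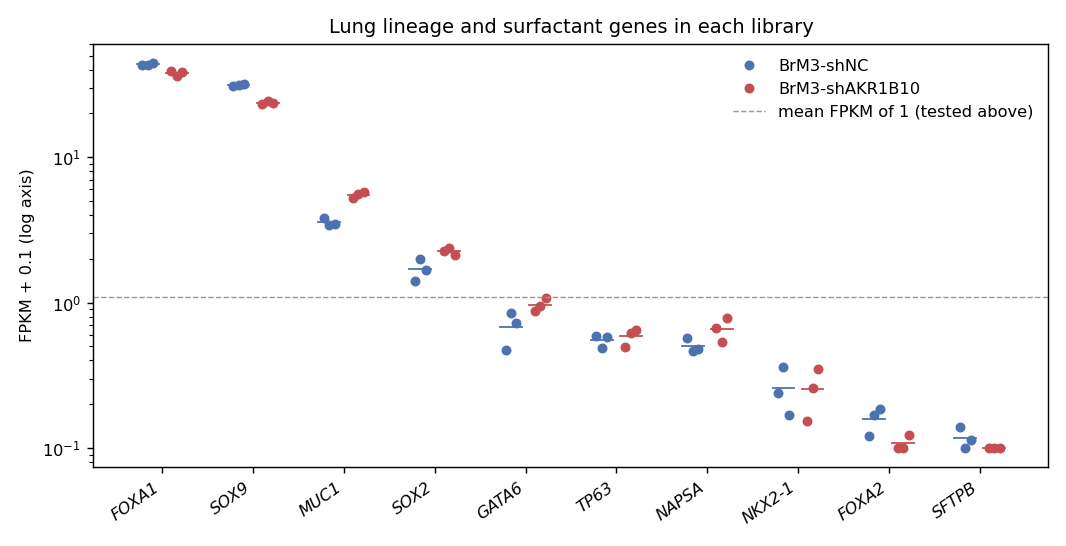
FPKM + 0.1 (log axis) of the 10 members in each library, with 3 points and a line at the mean for BrM3-shNC (blue) and BrM3-shAKR1B10 (red). FOXA1 and SOX9 lie above 20 FPKM in every library, MUC1 and SOX2 between 1.30 and 5.64 FPKM, and the other 6 members below 1 FPKM in every library.

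The targeted gene was checked first. AKR1B10 (ENSG00000198074, chr7:134527592-134541408) was at 108, 107 and 110 FPKM in BrM3-shAKR1B10 and at 799, 775 and 772 FPKM in BrM3-shNC. It fell by 2.85 on the log2(FPKM + 0.1) scale (SE 0.0300, adjusted p 1.59e-07), in the direction the labels give. Libraries held 16964504 to 18709028 reads on genes, so that 3 reads, the smallest level taken as detectable, corresponded to 0.163 to 0.177 FPKM for a gene of 1000 bases.

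NKX2-1, the factor that defines the lung lineage, was barely detectable by its listed reads. NKX2-1 (ENSG00000136352, chr14:36516392-36521149) had 3, 9 and 14 reads with AKR1B10 silenced and 8, 14 and 4 reads with the control shRNA. Each group summed to 26 reads, and the ranges overlapped almost completely. All 4758 bases of NKX2-1 lie within AL132857.2 on the opposite strand, and AL132857.1 overlaps 3130 of them on the same strand. AL132857.1 was listed at 0 reads in every library. How reads shared by overlapping genes were counted is not given in the sources used here, so the level of NKX2-1 is uncertain. Its mean was 0.154 ± 0.0980 FPKM (SD, n = 3) with AKR1B10 silenced and 0.156 ± 0.0975 FPKM in the control, below the level required for the test. By voom on recovered reads the log2 fold change of NKX2-1 was -0.04, with a 95% interval from -1.26 to 1.18, so changes within that interval were not detectable at this depth. The table's own annotation places NKX2-1 among 193 homeobox genes, of which it ranked 76 in BrM3-shNC, while IRX3, another homeobox gene of the airway, ranked 1 at 28.1 FPKM.

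The low listed level of NKX2-1 was not shared by all genes around it. On chromosome 14 its homeobox relative NKX2-8, 59430 bases away, and the paired-box factor PAX9, 136419 bases away, were at 2.15 and 3.46 FPKM in BrM3-shNC, and MBIP was at 6.09 FPKM. SFTA3, the surfactant-associated gene next to NKX2-1, and the antisense transcript NKX2-1-AS1 were listed at 0 in every library. Each lies wholly within another gene on its own strand, SFTA3 within AL132857.1 and NKX2-1-AS1 within AL132857.2. Their absence is therefore uncertain. None of NKX2-8, PAX9 and MBIP was called. FOXA1 lies on the same chromosome (chr14:37589984-37596059) and was the highest member.

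The surfactant gene among the members was at or near 0. SFTPB (ENSG00000168878, chr2:85657314-85668741) had 0 reads in all 3 BrM3-shAKR1B10 libraries and 3, 0 and 1 reads in BrM3-shNC. No fold is given, because both groups lie at or under 3 reads per library, a limit of at most 0.0432 FPKM for this gene. Its upstream window, printed above, holds a match to each motif, while that of its other start site holds none.

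NAPSA (ENSG00000131400, chr19:50358477-50365830) had 36, 28 and 43 reads in BrM3-shAKR1B10 and 31, 22 and 25 in BrM3-shNC. The groups overlapped, at means of 0.560 ± 0.122 and 0.406 ± 0.0579 FPKM (SD, n = 3). By voom its log2 fold change was 0.44 (95% interval -0.12 to 0.99, adjusted p 0.235). All 7354 bases of NAPSA lie within NR1H2, a nuclear receptor gene on the opposite strand with 1902 to 2207 reads per library, and the sources used here do not say whether counting used the strand. Reads listed for NAPSA therefore cannot be told apart from NR1H2 reads, and its detection is uncertain. The paralog NAPSB is overlapped by NR1H2 in the same way.

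FOXA1 opened the group of highly expressed factors. This forkhead protein can bind its sites in closed chromatin and is shared by lung, breast and prostate epithelia. FOXA1 (ENSG00000129514) was at 39.0, 36.1 and 38.2 FPKM in BrM3-shAKR1B10 and at 43.1, 43.0 and 44.2 FPKM in BrM3-shNC. The groups did not overlap, and every silenced library lay below every control library. The log2 fold change was -0.20 (SE 0.0380, 95% interval -0.29 to -0.11, adjusted p 0.00613 by limma), which passed the adjusted p but was within the fold change threshold. FOXA1 ranked 2 of 47 forkhead genes in both groups, after FOXQ1 at 83.2 FPKM in BrM3-shNC. TTC6, on the opposite strand, overlaps FOXA1 by 213 bases and had 113 to 155 reads per library.

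Its close relative FOXA2, which in the lung acts with FOXA1, was not detected. FOXA2 (ENSG00000125798, chr20:22581005-22585455) had 0, 0 and 1 reads in BrM3-shAKR1B10 and 1, 3 and 4 in BrM3-shNC. AL121722.1, a protein-coding gene listed at 0 reads in every library, overlaps FOXA2 by 3257 bases on the same strand. How shared reads were counted is not given, so the absence of FOXA2 is uncertain. FOXA3, the other member of this subfamily, had 1 read in 1 library and averaged 0.00421 FPKM over the 6 libraries. Of the FOXA subfamily, only FOXA1 was detected in every library, at 43.4 ± 0.667 FPKM in the control. FOXA2 was listed at 0.0578 ± 0.0329 FPKM, a level uncertain for the overlap with AL121722.1. LINC00261, a noncoding RNA beside FOXA2, was listed at 0 in every library. It is overlapped by AL121722.1 over 18090 bases on the same strand, so its absence is uncertain too.

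SOX9 and SOX2, which mark opposite ends of the developing airway, differed in level and in the sign of their fold change. SOX9 (ENSG00000125398, chr17:72121020-72126420) was at 23.1, 24.2 and 23.6 FPKM in BrM3-shAKR1B10 and at 31.0, 31.1 and 31.6 FPKM in BrM3-shNC. The replicates were close and the groups were well separated. Its log2 fold change was -0.40 (SE 0.0310, 95% interval -0.48 to -0.33), with an adjusted p of 0.000156, again within the fold change threshold. With no fold change threshold, FOXA1 and SOX9 would both count as lower, as would 23.1% of all genes tested. SOX9-AS1, which spans SOX9 on the opposite strand, had 17 to 37 reads per library.

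SOX2 (ENSG00000181449, chr3:181711924-181714436) was at 2.16, 2.27 and 2.02 FPKM in BrM3-shAKR1B10 and at 1.30, 1.91 and 1.57 FPKM in BrM3-shNC. All silenced libraries were above all control libraries, but the control libraries were spread. The log2 fold change was 0.43 (SE 0.146, 95% interval 0.08 to 0.77) and missed the threshold (adjusted p 0.0552). By voom it was 0.45 with an adjusted p of 0.0401, within the fold change threshold. Its call turned on 1 library, since without BrM3-shNC replicate 2 the log2 fold change was 0.56 and SOX2 was called higher (adjusted p 0.0223). SOX2 lies inside the noncoding gene SOX2-OT, for which 0 to 6 reads were listed per library.

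Among the other SOX genes, SOX15 was at 41.4 FPKM in the control, SOX12 at 30.6, SOX13 at 21.1 and SOX4 at 16.1, and none of these 4 was called. SOX15 lies wholly within MPDU1 on the opposite strand, at 875 to 1051 reads per library. SOX12 lies in the same way within NRSN2-AS1, at 108 to 157 reads. Reads of SOX15 and SOX12 are therefore uncertain, as for NAPSA. SOX21, SOX1, SOX3 and SOX8 were listed at 0 in every library.

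TP63, the basal cell factor, was low in both groups. TP63 (ENSG00000073282, chr3:189631416-189897279) had 52, 69 and 72 reads in BrM3-shAKR1B10 and 67, 49 and 65 in BrM3-shNC, or 0.484 ± 0.0789 and 0.452 ± 0.0552 FPKM (SD, n = 3). The groups overlapped. By voom the log2 fold change was 0.09 (95% interval -0.31 to 0.48). Its relative TP73 was at 2.05 FPKM in the control and was not called.

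GATA6, a zinc finger factor of lung and gut endoderm, was a member whose call depended on how low values were treated. GATA6 (ENSG00000141448, chr18:22169443-22202528) had 54, 60 and 68 reads in BrM3-shAKR1B10 and 27, 50 and 45 in BrM3-shNC. These correspond to 0.775, 0.842 and 0.972 FPKM against 0.373, 0.749 and 0.625 FPKM. The groups did not overlap, although the highest control library came close to the lowest silenced one. GATA6 averaged 0.723 FPKM and was not tested. Voom on the recovered reads called it higher, at a log2 fold change of 0.62 (95% interval 0.14 to 1.11, adjusted p 0.0466), one of 1261 genes it called higher among 21834. Limma on FPKM without a filter gave 0.53 (95% interval -0.11 to 1.18, adjusted p 0.275). The antisense gene GATA6-AS1, which overlaps GATA6 by 436 bases, had 8, 7 and 9 reads in BrM3-shAKR1B10 and 4, 2 and 0 in BrM3-shNC, and voom called it higher too. Its relatives GATA2 and GATA3 were far higher, GATA2 at 20.9 FPKM in the control and 28.4 FPKM after silencing, and GATA3 at 16.5 and 12.8 FPKM. Both differences were within the fold change threshold, at log2 fold changes of 0.44 and -0.36.

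MUC1 was the only member that limma called on FPKM. MUC1 (ENSG00000185499, chr1:155185824-155192916) was at 5.11, 5.45 and 5.64 FPKM in BrM3-shAKR1B10 and at 3.71, 3.30 and 3.36 FPKM in BrM3-shNC. The lowest silenced library was well above the highest control library. MUC1 rose from 3.45 ± 0.222 to 5.40 ± 0.269 FPKM (SD, n = 3), a ratio of 1.56. Its log2 fold change was 0.63 (SE 0.0669, 95% interval 0.47 to 0.79, adjusted p 0.000562), so the lower end of the interval lay just below the threshold of 0.5. The 3 tested protein-coding genes whose levels over the 6 libraries were most like those of MUC1 were NR1H3 (Pearson r 0.9996), CXorf40B (0.9989) and LAMB1 (0.9987). These are descriptions over 6 libraries in 2 groups, and 1548 of the 10776 genes compared exceeded 0.9.

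**Figure D2:**
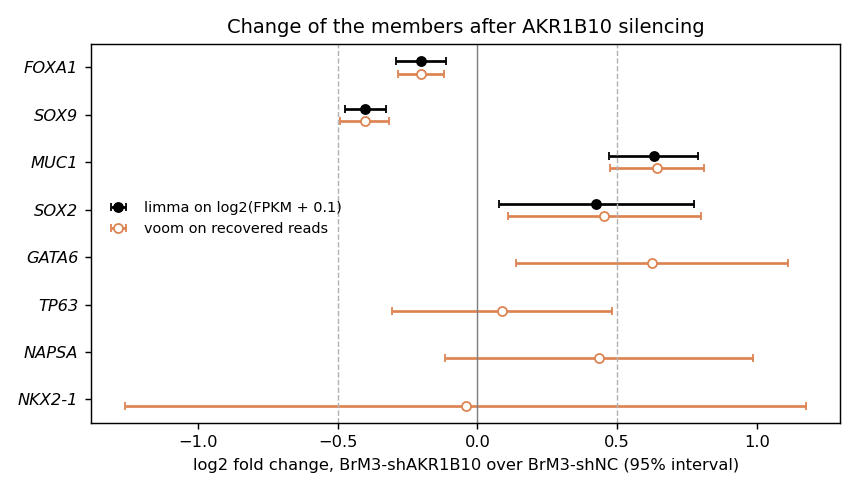
Log2 fold change of BrM3-shAKR1B10 over BrM3-shNC with its 95% interval for the 8 members with enough reads, by limma on log2(FPKM + 0.1) (black, 4 tested members) and by voom on recovered reads (open orange); dashed lines mark the threshold of 0.5. The interval of MUC1 lies above 0 at 0.63, those of FOXA1 and SOX9 below 0 at -0.20 and -0.40, and that of NKX2-1 runs from -1.26 to 1.18.

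For the 4 tested members, the groups did not overlap in any, as in 54.7% of all genes tested. An exact permutation test of single genes cannot go below a two-sided p of 0.1 with 3 libraries against 3, the value found for each of these 4 and for GATA6. In order of level in BrM3-shNC, FOXA1, SOX9, MUC1 and SOX2 did not overlap their neighbours in any library. GATA6, TP63 and NAPSA overlapped one another, as did NKX2-1 with FOXA2 and FOXA2 with SFTPB.

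Other surfactant and alveolar type II genes were also split by level. Of 17 such genes, 8 were tested, 1 rose, 2 fell and 5 were not called, with a median log2 fold change of 0.00 against -0.01 over all genes tested. Of all genes tested, 5.83% rose and 7.45% fell. The surfactant proteins themselves were near 0: SFTPC averaged 0.00581 FPKM over the 6 libraries, SFTPD 0.128 FPKM, and the near-identical SFTPA1 and SFTPA2, whose reads may be split between them, 0.134 and 0.107 FPKM. Genes of lipid handling and proteolysis with wider expression were well above them. CTSH, a lysosomal protease that also cleaves surfactant precursors, rose from 24.2 to 34.7 FPKM (log2 fold change 0.52, adjusted p 0.000371), and lost its call without BrM3-shAKR1B10 replicate 1 or BrM3-shNC replicate 1, since its value lies near the threshold. LPCAT1, which remodels surfactant phosphatidylcholine, was at 29.6 and 27.9 FPKM and was not called. LAMP3, a membrane protein of lamellar bodies, fell from 1.44 to 0.774 FPKM (-0.80), and CHPT1, a phosphatidylcholine synthase, fell from 1.75 to 1.07 FPKM (-0.66). With a pseudocount of 1 neither was called, at -0.45 for LAMP3 and -0.41 for CHPT1. ADGRF5, a surfactant-regulating receptor, was too low for limma at 0.231 FPKM, and voom called it higher.

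Of 15 known NKX2-1 target genes, 4 were tested and 1, LAMP3, fell, where 7.45% of all genes tested fell. SELENBP1, ABCA3 and ROR1 were at 5.76, 3.91 and 4.17 FPKM in the control and were not called. The remaining 11 were below a mean of 1 FPKM, among them the club cell products SCGB1A1 and SCGB3A2. Of the 8 alveolar type I genes, 2 of 4 tested fell, against the same 7.45%: AGER, the receptor for glycation end products, from 5.18 to 3.14 FPKM (-0.71), and RTKN2 from 5.03 to 2.88 FPKM (-0.78). CAV1 and EMP2, the highest of this list, were at 29.7 and 23.6 FPKM in the control and were not called. HOPX, a homeodomain protein of this cell type, averaged 0.762 FPKM and was not tested, at 1.02 FPKM after silencing and 0.505 FPKM in the control, and voom called it higher.

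**Figure D3:**
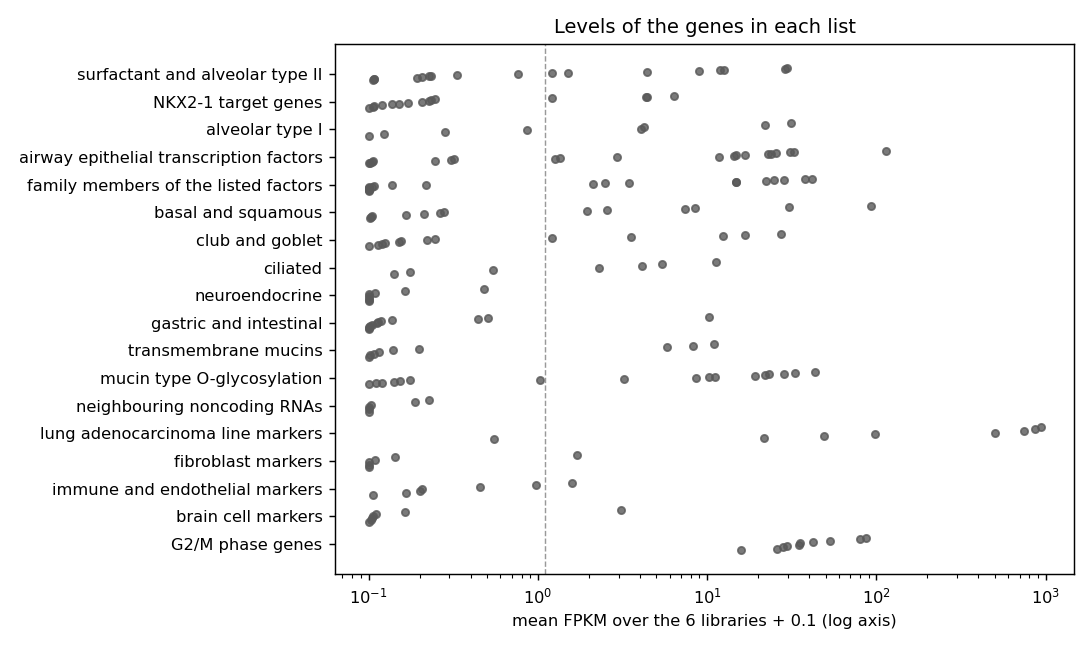
Mean FPKM + 0.1 over the 6 libraries (log axis) of each gene in 18 lists, 1 point per gene, with a dashed line at the 1 FPKM required for the test. The lung adenocarcinoma line markers reach the highest levels, while 11 of 15 NKX2-1 targets and all 8 neuroendocrine genes lie left of the line.

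Of 20 epithelial transcription factors of the airway, 13 were tested, 2 fell and 11 were not called; over all genes tested, 86.7% were not called. CEBPB and IRX3 had the highest means over the 6 libraries, CEBPB at 123 FPKM in the control and 105 FPKM after silencing, and IRX3 at 28.1 and 36.8 FPKM. HHEX, a homeobox factor of foregut organs, fell from 1.70 to 0.786 FPKM (-1.03), and ETV4, an ETS factor of the distal lung, fell from 30.9 to 20.1 FPKM (-0.62); ETV4 is overlapped on the opposite strand by DHX8, at 794 to 991 reads per library. Of 21 relatives of the listed factors, 10 were tested and limma called 0 in either direction, with 7 at an unadjusted p under 0.05 (51.1% of all genes tested) and 0 called by voom.

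In the lists of other epithelial fates, limma called 1 gene each of the basal, club and goblet, ciliated and gastric lists. Over all genes tested, limma called 5.83% higher and 7.45% lower, and voom 5.78% and 6.23%. In the basal and squamous list 6 of 13 genes were tested, and KRT17 fell from 3.89 to 1.03 FPKM (-1.81); PERP and SERPINB5 were the highest, at 106 and 29.7 FPKM in the control. KRT5 and KRT14, the basal keratins, averaged 0.181 and 0.111 FPKM. Voom called KRT5 and KRT17 lower and TRIM29 and CLCA2 higher. In the club and goblet list 5 of 13 were tested, and BPIFB1, a secreted airway defence protein, rose from 2.58 to 4.27 FPKM (0.71). MUC5B, a secreted gel-forming mucin, was at 14.4 FPKM in the control and 10.2 FPKM after silencing; at a log2 fold change of -0.50 (adjusted p 0.00130) it was just within the threshold, and voom called it lower. AGR2 and SPDEF, both of goblet cells, were at 26.1 and 15.0 FPKM in the control and were not called.

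Of 7 ciliated cell genes, 4 were tested and the ciliogenesis factor FOXJ1 fell from 5.23 to 2.81 FPKM (-0.87), while CAPS and RSPH1, with the highest means of the list over the 6 libraries, were not called, at log2 fold changes of 0.37 (adjusted p 0.0289) and 0.39 (adjusted p 0.00689), both above 0. DNAH5, a dynein of motile cilia, averaged 0.440 FPKM and was not tested; voom called it higher. The 8 neuroendocrine genes were all below the level for the test, 5 of them at 0 in every library; SYP and CHGA were the highest, at means of 0.378 and 0.0637 FPKM. Of 12 gastric and intestinal genes, 1 was tested: TFF1, a secreted trefoil peptide, fell from 15.8 to 4.38 FPKM (-1.83). CTSE, the next highest, averaged 0.409 FPKM, and voom called it higher.

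The mucins and the enzymes that glycosylate them give the setting for MUC1. Calls in these lists stand beside 5.83% higher and 7.45% lower over all genes tested by limma, and 5.78% and 6.23% by voom. Of 9 other transmembrane mucins, 3 were tested and MUC20 rose from 4.63 to 6.76 FPKM (0.54, adjusted p 0.000604), although not with a pseudocount of 1 (0.46). Its neighbour MUC20-OT1, a noncoding RNA on the same strand that overlaps it by 19083 bases, had 601 to 970 reads per library. MUC16 and MUC4, the 2 highest, were at 9.45 and 8.60 FPKM in the control and were not called. Of 17 genes of mucin-type O-glycosylation, 10 were tested. GALNT1, which attaches the first sugar, rose from 18.5 to 27.8 FPKM (0.59), and GALNT7, a follow-on transferase, fell from 14.7 to 7.41 FPKM (-0.98). GALNT10 and C1GALT1C1, the highest of the list, were not called. Among genes too low for limma, voom called MUC12 and ST6GALNAC2 lower.

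**Figure D4:**
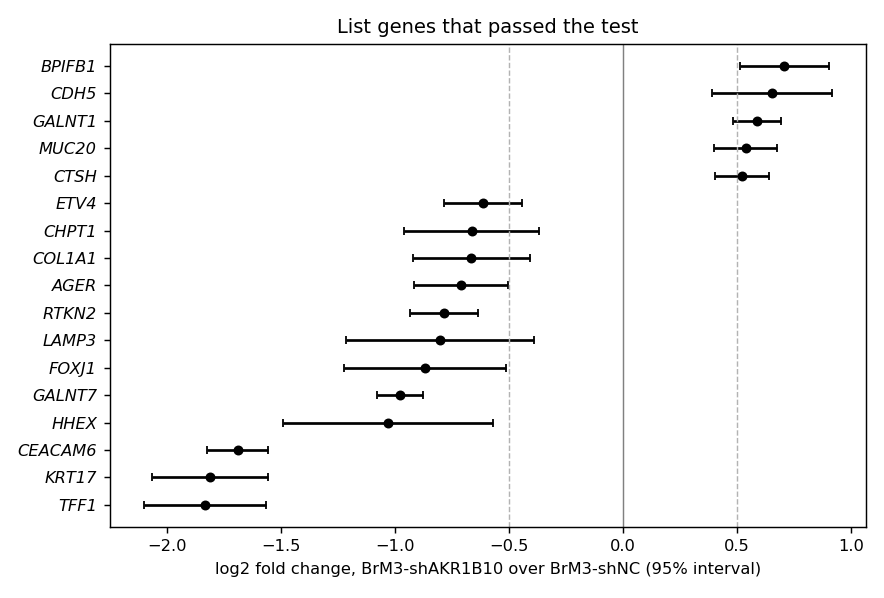
Log2 fold change with its 95% interval of the 17 genes from the lineage and cell type marker lists that passed the test, the 10 G2/M phase genes left out, with dashed lines at the threshold of 0.5. TFF1, KRT17 and CEACAM6 lie furthest below 0, at -1.83, -1.81 and -1.69, and BPIFB1 is the highest at 0.71.

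Over the 13 lineage lists together, which share some genes, 65 of 154 genes were tested, of which 4 rose (6.15%, against 5.83% of all genes tested), 10 fell (15.4%, against 7.45%) and 51 were not called. Their median log2 fold change was 0.04, above 0 although more genes fell than rose, against -0.01 over all genes tested.

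The line was checked against its label by markers of lung adenocarcinoma lines. KRT19 and KRT8 were at 939 and 839 FPKM in the control, EPCAM at 107 and CDH1 at 46.4, markers of epithelium in general. The members NKX2-1, SFTPB and NAPSA, used to recognise lung origin, were at 0.156, 0.0177 and 0.406 FPKM. The levels of NKX2-1 and NAPSA are uncertain for the genes that overlap them, in NAPSA NR1H2. Of the 8 line markers, 7 were tested and CEACAM6, an adhesion glycoprotein, fell from 33.0 to 10.2 FPKM (-1.69); voom also called CEACAM5, at a mean of 0.453 FPKM, lower.

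**Figure D5:**
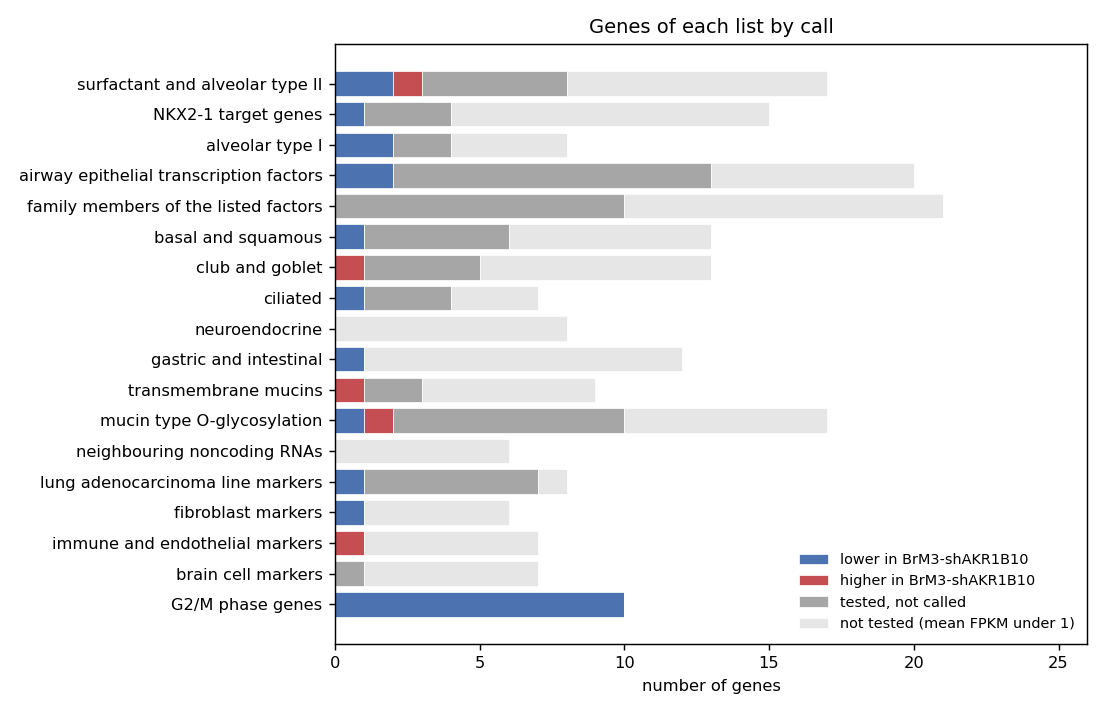
Number of genes in each of 18 lists that were lower (blue) or higher (red) in BrM3-shAKR1B10, tested without a call (dark grey) or not tested (light grey). Only the 10 G2/M phase genes were all called, all lower.

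Some marker sums moved with the groups. All 10 genes of the G2/M phase list fell, with a median log2 fold change of -1.20, with the largest changes in MKI67 (-1.34), AURKA (-1.33), BUB1 (-1.30), CCNB1 (-1.23) and CENPF (-1.22). CCNB1 and CDC20 had the highest means over the 6 libraries. The summed level of the list was 257 to 264 FPKM in BrM3-shAKR1B10 and 598 to 601 FPKM in BrM3-shNC. Fibroblast markers summed to 1.20 to 1.37 FPKM against 2.03 to 2.08 FPKM; of 6, COL1A1 fell (-0.67, but -0.43 and not called with a pseudocount of 1), PDGFRB averaged 0.0430 FPKM, and COL1A2, DCN and LUM were listed at 0 in every library. Immune and endothelial markers summed to 3.11 to 3.33 FPKM against 2.56 to 3.03 FPKM; of 7, 1 was tested, CDH5, which rose (0.65, but 0.41 and not called with a pseudocount of 1). PECAM1, also endothelial, was at 0.272 FPKM after silencing and 0.438 FPKM in the control, and voom called it lower; CD14 averaged 0.877 FPKM. Brain markers summed to 2.53 to 2.70 FPKM against 3.44 to 3.61 FPKM; of 7, 1 was tested, MBP, at 2.56 FPKM after silencing and 3.41 FPKM in the control. The groups of MBP did not overlap, and its log2 fold change of -0.40 (adjusted p 0.00225) was within the fold change threshold; voom did not call it. RBFOX3 averaged 0.0642 FPKM. The part of these shifts in the results for MUC1, SOX9 and FOXA1 was not tested. In such bulk libraries, fewer cells of a type and less RNA per cell cannot be told apart.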

How the data were processed

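RNA-seq was analysed for 3 BrM3-shAKR1B10 and 3 BrM3-shNC libraries, grouped by their labels. The authors aligned reads with HISAT2 2.0.5, counted them per gene with featureCounts 1.5.0-p3, per the labels, and deposited FPKM values for 58735 genes, replicates kept apart; strand use and the treatment of reads on overlapping genes are not given in the sources used here. All gene positions equalled GENCODE 29 (GRCh38). The FPKM already hold a median-of-ratios scaling. Whole reads were recovered from FPKM and gene length for 100% of values (tolerance 0.02). Floors of 3 reads cover counting error only.

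Values of genes averaging 1 FPKM or more were compared on log2(FPKM + 0.1), which understates changes of low genes, with limma 3.58.1 (R 4.3.3; lmFit, eBayes with trend) and Benjamini-Hochberg adjustment over 13150 genes. Voom used genes with at least 10 reads over the libraries. On simulated data with 200 changed genes, 196 were recovered, with 9 false calls. The planted changes were all larger than those of the tested members, so this recovery does not apply to the members. Replicates of a group differed by more than sampling noise. Same-numbered libraries did not deviate together (correlations -0.0155 to 0.00388), so numbers did not pair them.

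The members and gene lists were chosen with earlier results of these data known; no set test was run. Named genes are the members, AKR1B10, each list's called genes (up to 5 per direction) and 2 highest, genes overlapping a listed gene (only those with many reads are printed) and the 3 most like a called member; other genes, and the gene families of the table's annotation, were chosen after their values were seen; a gene that this rule covers is not reported here. Motifs were searched in Python 3.11.15. Alternatives covered pseudocounts, filters, scaling, the trend, voom, the replicate block, coding genes, fold thresholds and each library left out. Promoters were from RefSeq (GRCh38.p14).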

Additional observations from a re-analysis of the deposited data

How the results depend on the processing

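No tested member or named called gene changed direction under any of the 19 alternatives. MUC1 stayed between 0.52 and 0.68 on the log2 scale and was called in all that tested it except a fold change threshold of 1, where its 0.63 falls short by construction; with a mean FPKM of at least 5 it was not tested. The number of members called higher, 1, became 0 under each of these settings, 2 by voom (MUC1 and GATA6) and 1 to 2 with a library left out, the second being SOX2 without BrM3-shNC replicate 2, whose fold change ranged from 0.30 to 0.56 over the left-out libraries. With no fold change threshold, 2 members were lower, SOX9 at -0.40 and FOXA1 at -0.20.

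Genes called higher over the whole table numbered 766, against 497 with a pseudocount of 1, 290 with a mean FPKM of at least 5, 1261 by voom, 168 at a fold change threshold of 1 and 2548 with none. Genes called lower numbered 980, against 532, 205 and 3044 with the filter at 5, the threshold at 1 and no threshold. With TPM the balance turned, to 902 higher and 873 lower, and the median log2 fold change of all genes tested, -0.01, was 0.03; it was 0.02 without a filter and by voom, and 0.01 with quantile scaling. Of the lineage list genes, 4 were called higher, against 7 without a filter, 11 by voom, 0 at the threshold of 1 and 20 with none; 10 were called lower, against 3 with the filter at 5, 3 at the threshold of 1 and 23 with none. Of 27 called list genes named, 21 kept their call except at the threshold of 1 or where a filter left them out.

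With the replicate block, 719 genes were higher and 967 lower, and the calls of the tested members did not change (adjusted p 0.00641 for MUC1 and 0.0647 for SOX2). At this depth the members with few reads, NKX2-1 above all, allow only wide intervals.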
